A study of Mus musculus with 54 samples.

Results

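Imprinted genes were followed through intestinal DNA methylation of inbred and crossed mice. The set holds 36 genes known for parent-of-origin expression, chosen by name, among 47042 autosomal genes of the annotation. The members were defined by position: every 250 bp window that overlaps a member's body or the 2 kb on either side in mm10. That gave 380 windows with a deposited CpG density score of 10 or more, called CpG-dense here, of 160667 such windows on the autosomes, and 10120 other windows with a score. CpG-dense windows and other windows were kept apart throughout.

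Imprinting marks 1 of the parental copies of a gene by DNA methylation laid down in the egg or the sperm, and the mark is kept in body cells at a control region, often a CpG island. The copy with the mark and the copy without it then differ in expression, so that at such a region the DNA of a normal tissue carries both a methylated and an unmethylated copy. Most CpG islands elsewhere carry no methylation on either copy. Losses and gains at imprinted control regions, such as that of Igf2 and H19, are known from intestinal tumours.

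The libraries are methylated DNA immunoprecipitation (MeDIP) libraries, in which an antibody against 5-methylcytosine pulls down methylated fragments that are then sequenced. All mice were 15 to 19 weeks old, and the tissue was intestinal mucosa or intestinal adenoma. Mice with the APC min allele develop intestinal adenomas, and their adenomas and normal mucosa were set beside mucosa of wild type mice. In C57BL/6 (B6) mice there were 5 adenoma, 3 normal and 4 wild type libraries. The F1 cross B6xPWD, the strain C5 (a PWD/Ph chromosome 5 on a C57BL/6 genome) and C5F1 had 3 libraries for every one of the tissues. C1_5F1 had 2 adenoma and 2 normal libraries, and PWD/Ph (PWD) had 3 wild type libraries. The labels name C5F1 and C1_5F1 without spelling out their crosses, and no PWD mouse with APC min is among the libraries. In all, 16 adenoma, 14 normal and 16 wild type libraries were used. Library 11_6 of B6xPWD is labelled normal mucosa of an APC min mouse as MeDIP and wild type as input, and it was used under its MeDIP label.

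Depth ran from 8358806 to 27842607 counts per library. CpG-dense windows held a share of counts that was 4.06% to 5.96% in the 11 libraries whose label begins with 16 and 5.13% to 7.76% in the others. Levels are given in CPM, the count scaled to a common library size as edgeR does, and a level at 1 window is the methylated DNA captured there from both parental copies together. The counts do not tell the parental copies apart, and methylation per cell and the share of cells that carry it cannot be told apart in these bulk tissues. The 1 input library with counts had 425 reads over the 380 CpG-dense windows of imprinted genes and at most 5 in any of them. Expression was not measured, so the labelled tissues were not checked by marker expression. Nothing in the labels says whether libraries of a group came from separate mice, so p-values measure the spread between these libraries.

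The promoters shown here are all CpG-rich and differ in how much methylated DNA was captured. They are a choice that favours high and low levels. Other CpG-rich promoters lay between, such as a start of Igf2 (24 CpGs, 0.177 CPM) and that of Zim1 (20 CpGs, 0.126 CPM). RefSeq (GRCm38.p6, the assembly of mm10) gave promoter sequences for 28 of the 36 genes, 45 in all, each reaching from 250 bases before to 50 bases after a start. They are written 5′ to 3′ on the gene's strand, with every CpG in capitals. The upstream start of Gnas, which encodes the stimulatory G protein alpha subunit, lies at chr2:174327499-174327798 on the plus strand, holds 27 CpGs and was captured at 1.54 CPM (mean over the 46 libraries of the windows it touches).
Gnas upstream start: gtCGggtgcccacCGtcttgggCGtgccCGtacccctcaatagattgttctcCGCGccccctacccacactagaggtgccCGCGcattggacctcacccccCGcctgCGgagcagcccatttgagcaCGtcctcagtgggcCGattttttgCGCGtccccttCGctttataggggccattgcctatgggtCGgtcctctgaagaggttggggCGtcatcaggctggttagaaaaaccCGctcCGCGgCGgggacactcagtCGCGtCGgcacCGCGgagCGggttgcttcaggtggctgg
The main Gnas start lies at chr2:174329756-174330055 on the plus strand, holds 40 CpGs and was at 0.00343 CPM.
Gnas main start: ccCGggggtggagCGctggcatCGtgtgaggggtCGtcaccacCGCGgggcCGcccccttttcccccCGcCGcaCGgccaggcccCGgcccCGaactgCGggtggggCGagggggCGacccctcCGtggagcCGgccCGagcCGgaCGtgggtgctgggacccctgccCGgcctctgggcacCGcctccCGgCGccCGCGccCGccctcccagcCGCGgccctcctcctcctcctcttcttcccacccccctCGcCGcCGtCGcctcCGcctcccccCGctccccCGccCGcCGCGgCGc
Nnat, which encodes the membrane protein neuronatin, starts inside Blcap at chr2:157559828-157560127 on the plus strand, with 17 CpGs and 1.25 CPM.
Nnat: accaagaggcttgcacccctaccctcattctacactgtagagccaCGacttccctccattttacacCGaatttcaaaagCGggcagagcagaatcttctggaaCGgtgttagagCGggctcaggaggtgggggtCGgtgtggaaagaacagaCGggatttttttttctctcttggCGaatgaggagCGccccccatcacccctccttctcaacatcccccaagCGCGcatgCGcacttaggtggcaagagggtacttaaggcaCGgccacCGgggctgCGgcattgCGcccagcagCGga
The start of Blcap, a gene that gives rise to a small protein linked to apoptosis, lies at chr2:157566312-157566611 on the minus strand, with 17 CpGs as well and 0.00801 CPM.
Blcap: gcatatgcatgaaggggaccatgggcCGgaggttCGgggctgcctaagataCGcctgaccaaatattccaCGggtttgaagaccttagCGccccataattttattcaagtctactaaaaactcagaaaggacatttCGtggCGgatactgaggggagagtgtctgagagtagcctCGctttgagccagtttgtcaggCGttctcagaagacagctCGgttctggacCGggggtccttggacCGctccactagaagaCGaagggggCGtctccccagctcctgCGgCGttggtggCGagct
Mest, which encodes a hydrolase-fold protein expressed from the paternal copy, starts at chr6:30737800-30738099 on the plus strand, with 17 CpGs and 1.27 CPM.
Mest: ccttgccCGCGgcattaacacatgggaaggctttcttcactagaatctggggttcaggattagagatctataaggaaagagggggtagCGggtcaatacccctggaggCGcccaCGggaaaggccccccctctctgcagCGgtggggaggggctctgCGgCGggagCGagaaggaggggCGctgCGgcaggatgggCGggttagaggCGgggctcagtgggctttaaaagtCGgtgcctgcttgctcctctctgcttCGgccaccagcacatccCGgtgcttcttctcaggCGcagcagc
Plagl1, a zinc-finger transcription factor gene, starts at chr10:13090582-13090881 on the plus strand, with 26 CpGs and 1.91 CPM.
Plagl1: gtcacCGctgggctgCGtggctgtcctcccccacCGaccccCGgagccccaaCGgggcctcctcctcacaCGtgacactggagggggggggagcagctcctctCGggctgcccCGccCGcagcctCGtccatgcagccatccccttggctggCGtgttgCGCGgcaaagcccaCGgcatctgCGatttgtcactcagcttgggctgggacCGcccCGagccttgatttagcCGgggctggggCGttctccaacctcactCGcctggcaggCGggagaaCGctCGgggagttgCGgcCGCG
Igf2r, which encodes the receptor that clears IGF2, starts at chr17:12769657-12769956 on the minus strand, with 34 CpGs and 1.69 CPM.
Igf2r: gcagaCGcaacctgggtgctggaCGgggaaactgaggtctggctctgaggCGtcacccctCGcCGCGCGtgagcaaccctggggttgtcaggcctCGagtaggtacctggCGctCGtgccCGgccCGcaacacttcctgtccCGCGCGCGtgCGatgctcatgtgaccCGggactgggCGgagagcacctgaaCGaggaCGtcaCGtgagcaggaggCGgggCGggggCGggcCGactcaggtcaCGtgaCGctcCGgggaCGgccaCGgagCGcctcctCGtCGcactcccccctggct
The CpG-rich start of Grb10, which encodes an adaptor that restrains insulin signalling, lies at chr11:12037371-12037670 on the minus strand, with 45 CpGs and 0.0277 CPM.
Grb10: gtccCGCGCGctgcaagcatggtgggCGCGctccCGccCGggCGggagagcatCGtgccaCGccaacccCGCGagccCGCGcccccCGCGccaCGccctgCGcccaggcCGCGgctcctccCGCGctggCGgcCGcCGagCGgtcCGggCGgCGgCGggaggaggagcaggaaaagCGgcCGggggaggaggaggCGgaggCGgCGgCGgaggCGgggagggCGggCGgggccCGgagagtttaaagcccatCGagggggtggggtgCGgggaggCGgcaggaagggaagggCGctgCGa
Commd1, which encodes a copper-handling protein and hosts the imprinted gene Zrsr1 in its body, starts at chr11:22982235-22982534 on the minus strand, with 18 CpGs and 0.164 CPM. It is shown because its level divided the strains, as described further on.
Commd1: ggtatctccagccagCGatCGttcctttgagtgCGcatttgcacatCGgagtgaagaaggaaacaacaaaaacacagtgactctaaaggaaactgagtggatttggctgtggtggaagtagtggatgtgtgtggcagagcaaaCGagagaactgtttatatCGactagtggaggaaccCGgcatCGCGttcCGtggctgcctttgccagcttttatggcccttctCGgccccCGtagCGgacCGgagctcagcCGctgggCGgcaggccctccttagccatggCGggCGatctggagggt
Of these starts, the upstream Gnas start and those of Nnat, Mest, Plagl1 and Igf2r were captured at 1.25 CPM or more, whereas the main Gnas start, Blcap and Grb10 were below 0.03 CPM. Grb10 and the main Gnas start held more CpGs than any of the captured ones, and Blcap as many as Nnat and Mest.

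The letters TGCCGC, the hexamer that the zinc-finger protein ZFP57 binds when methylated, were searched on both strands (TGCCGC and GCGGCA). They were found in 10 of the 45 promoters of imprinted genes (22.2%) and in 11.6% of all 31396 promoters of the table. The 45 are not all separate sequences. The Mest promoters that begin at 6:30737800 and 6:30737803 overlap, and each counts among the 10. The Gnas promoters that begin at 2:174327499 and 2:174327518 overlap as well and hold no match. Among the promoters printed here Mest holds 2 matches and Nnat, Plagl1, Grb10 and Commd1 hold 1 each. The promoters of imprinted genes had a median of 13 CpGs, against 7 over all promoters. A match describes the sequence and not a bound site.

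More of the CpG-dense windows of imprinted genes held captured methylated DNA than of all CpG-dense windows. Of the 380 windows, 207 (54.5%) lay between 0.5 and 3 CPM, 81 (21.3%) from 0.1 to 0.5 CPM and 90 (23.7%) below 0.1 CPM, whereas over all 160667 CpG-dense windows 25.8% lay in the middle range and 54.6% below 0.1 CPM. The gap between imprinted genes and the rest was wide in the windows of density 20 to 30. There 51 of the 88 windows of imprinted genes (58.0%) were at 0.5 to 3 CPM, against 5.82% of the 21851 windows of that density on the autosomes, and 30.7% against 86.2% were below 0.1 CPM. At a density of 30 or more, 34.3% of 35 windows of imprinted genes and 1.62% of all 14202 windows were in the middle range. At densities of 10 to 15 the shares were 58.4% of 197 windows and 38.4% of all.

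**Figure D1:**
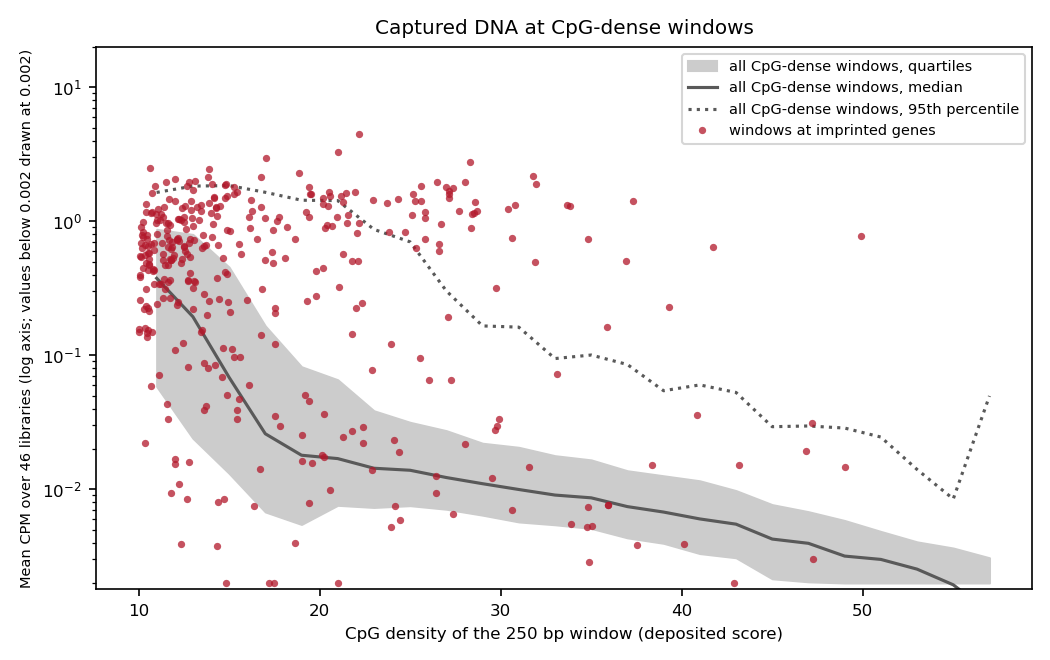
Mean CPM over 46 libraries (log axis) of each CpG-dense window at imprinted genes (points) against its deposited CpG density score, with the median, quartiles and 95th percentile of all CpG-dense windows. Among windows of density 20 to 30, 58.0% of those at imprinted genes lie between 0.5 and 3 CPM, against 5.82% of all.

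Among windows at 0.5 CPM or above, those of imprinted genes had a lower median than all such windows of their density. At densities of 20 to 30 their median was 1.29 CPM (quartiles 0.940 to 1.59, 53 windows), against 1.49 CPM (0.882 to 2.27, 1435 windows) over all. At a density of 30 or more the medians were 1.27 CPM over 12 windows and 1.40 CPM over 267. At densities of 15 to 20 they were 1.07 CPM and 1.33 CPM, and at 10 to 15 they were 0.919 CPM and 1.00 CPM. The lower quartile of imprinted genes was the higher one at densities of 20 to 30 and of 15 to 20 (0.8405 against 0.8134 CPM), and the lower one in the other classes. The quartiles overlapped in each class, neighbouring windows share fragments, and no test was made of these levels.

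At several genes of clusters known to take their methylation from the egg, all or most CpG-dense windows were captured. These windows cover body and flank and not the control region alone. At Kcnq1ot1, the long non-coding RNA that silences its neighbours from inside Kcnq1, all 6 CpG-dense windows were at 1.41 to 2.95 CPM. Igf2r and Airn, the non-coding RNA that silences Igf2r, share 10 CpG-dense windows, and all 14 of Igf2r were at 0.527 to 1.97 CPM. Zrsr1, a splicing factor gene, had 7 of 7 windows at 0.534 to 1.55 CPM, and Mest had 10 of 12 at 0.5 CPM or more. Peg10, a gene derived from a retrotransposon, and Sgce, which encodes epsilon-sarcoglycan, share 10 CpG-dense windows around their common start. Of the 16 CpG-dense windows of Peg10 13 reached 0.5 CPM, and the windows of density 24.3 to 26.6 between 6:4747251 and 6:4748500 were at 0.675 to 1.47 CPM.

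Several genes held a captured and an empty stretch side by side. In Grb10, 6 windows from 11:12025501 to 11:12027000 were at 0.773 to 1.40 CPM with densities up to 49.9, and the other 8, around the CpG-rich start printed for it, were at 0.0145 to 0.0880 CPM. Inpp5f, which encodes a phosphoinositide phosphatase, had 4 windows at 1.18 to 1.41 CPM inside the gene (7:128687501 to 7:128688500), and at its own start the windows of density 24.4 and 34.9 were at 0.00593 and 0.00289 CPM. Trappc9, a vesicle-trafficking gene, had windows of 0.876 to 1.61 CPM from 15:72809251 to 15:72810500, and 2 windows near its start at 0.00375 and 0.00396 CPM. The highest CpG-dense window of any imprinted gene also lay in Trappc9, at 15:73058001 to 73058250 (density 22.2), with 4.49 CPM ± 0.773 (SD, n = 46).

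Gnas held 54 CpG-dense windows, more than any other of these genes, and 40 of them were at 0.5 CPM or more. Windows reached 1.69 CPM near 2:174284751, 1.95 CPM at 2:174298501 and 1.89 CPM at 2:174328501. From 2:174329501 to the next window the level fell from 0.251 to 0.00381 CPM while the density rose from 15.0 to 37.5. In wild type mucosa the window of density 47.3 had 0 CPM in all libraries of B6 (n = 4), PWD (n = 3) and B6xPWD (n = 3). A count of 0 in 1 library allows at most 0.107 to 0.326 CPM, depending on its depth, from counting error alone.

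**Figure D2:**
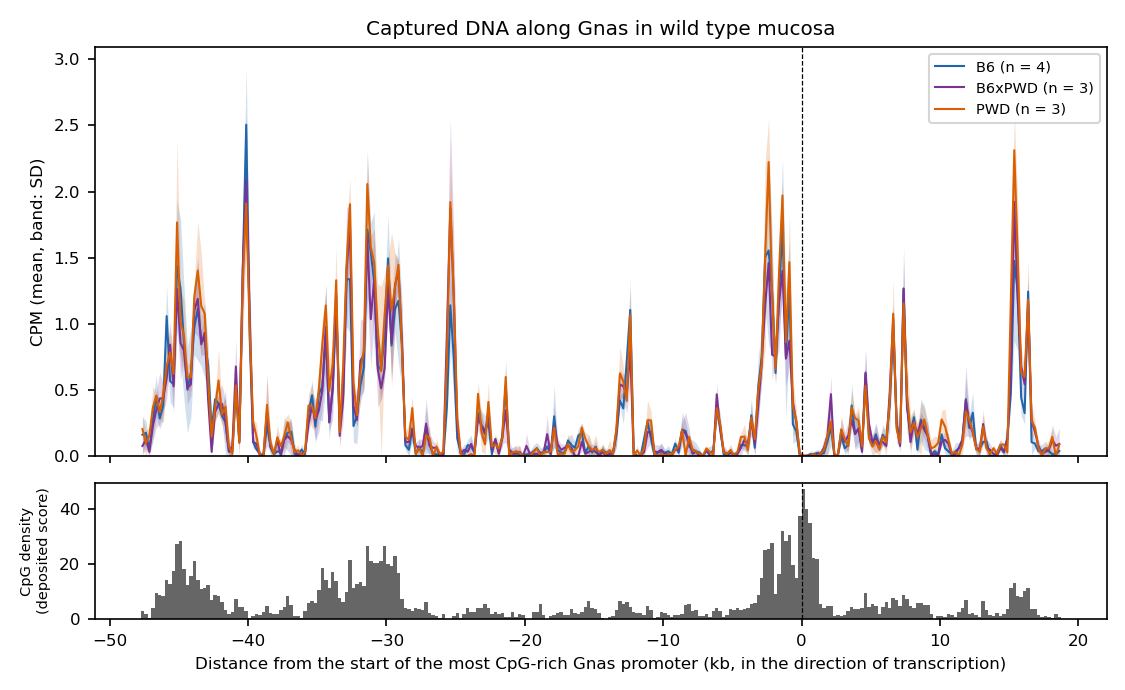
Mean CPM along Gnas in wild type mucosa (upper panel; lines B6, n = 4, B6xPWD and PWD, n = 3 each; bands SD) and CpG density score of each window (lower panel) against distance from the main start in kb. The lines of all 3 strains drop to about 0 at the main start, where the density is highest.

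The 3 genes Ube3a, Phlda2 and Ascl2, known as imprinted mainly in neurons or placenta, had no captured CpG-dense window. Ube3a, the ubiquitin ligase gene of Angelman syndrome, had 6 of 6 windows below 0.1 CPM (highest 0.0388), Phlda2, a growth-restraining gene of placenta, 8 of 8 (highest 0.0296), and Ascl2, a transcription factor gene of intestinal stem cells, 9 of 9 (highest 0.0783). Ddc, which encodes aromatic amino acid decarboxylase, and Dcn, which encodes decorin, had no CpG-dense window. Igf2, the growth factor gene, had 14 of 21 windows below 0.1 CPM and 2 above 0.5 CPM, both in its body (highest 0.723 at 7:142654251). H19, the non-coding RNA gene beside it, had 4 of 5 windows above 0.5 CPM (highest 1.37). The control region between Igf2 and H19 lies outside a 2 kb flank in large part and is not described here.

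In the cluster of genes expressed from the paternal copy in neurons, levels were lower. Ndn, which encodes necdin, had 1 of 4 windows above 0.5 CPM (highest 0.654), Magel2, which encodes a partner of ubiquitin ligases, 2 of 6 (highest 0.738), and Mkrn3, a ring-finger gene that delays puberty, 3 of 6 (highest 0.556). Snrpn, a splicing protein gene whose start carries the control region of the cluster, had 1.14 CPM at 7:60004251 and 0.764 CPM at 7:60005001. The annotated span of Snrpn reaches 7:60450177, and 12 of its 23 CpG-dense windows were below 0.1 CPM.

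The genes not yet described lay between these. Peg3, a zinc-finger gene, had 10 of 12 CpG-dense windows at 0.5 CPM or more (highest 1.99), Plagl1 4 of 7 (2.17), Nnat 7 of 8 (1.76), Cdkn1c, a cell cycle inhibitor gene, 8 of 11 (1.79), Meg3, a non-coding RNA gene, 10 of 15 (1.91) and Slc38a4, an amino acid transporter gene, 9 of 13 (1.96). Rasgrf1 had 6 of 17 (highest 2.44), Cdh15, a cadherin gene, 4 of 7 (2.49), Impact, which encodes a regulator of translation, 6 of 8 (0.838), Kcnq1 15 of 23, Commd1 7 of 10, Blcap 7 of 12, Sgce 10 of 12, Zim1 2 of 5 and Dlk1 3 of 10.

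The first question of the design was whether methylation differed between adenoma and normal mucosa of APC min mice. At the highest CpG-dense window of each gene the ranges of the tissues overlapped. Such a window need not lie at the control region, and that of Peg3 (7:6707751, density 13.1) lay in the body away from the start. At Kcnq1ot1 this window was at 1.95, 3.27 and 4.30 CPM (lowest, median and highest) in 16 adenomas, 1.81, 2.95 and 4.19 CPM in 14 normal samples and 1.30, 2.42 and 4.28 CPM in 16 wild type samples. At H19 it was at 0.812, 1.48 and 2.05 CPM in adenomas and 0.478, 1.45 and 1.89 CPM in normal mucosa. The ranges of adenoma and normal mucosa overlapped at all 34 genes with a CpG-dense window. At Gnas, for example, adenomas lay at 1.04 to 2.83 CPM and normal samples at 0.743 to 3.22 CPM.

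**Figure D3:**
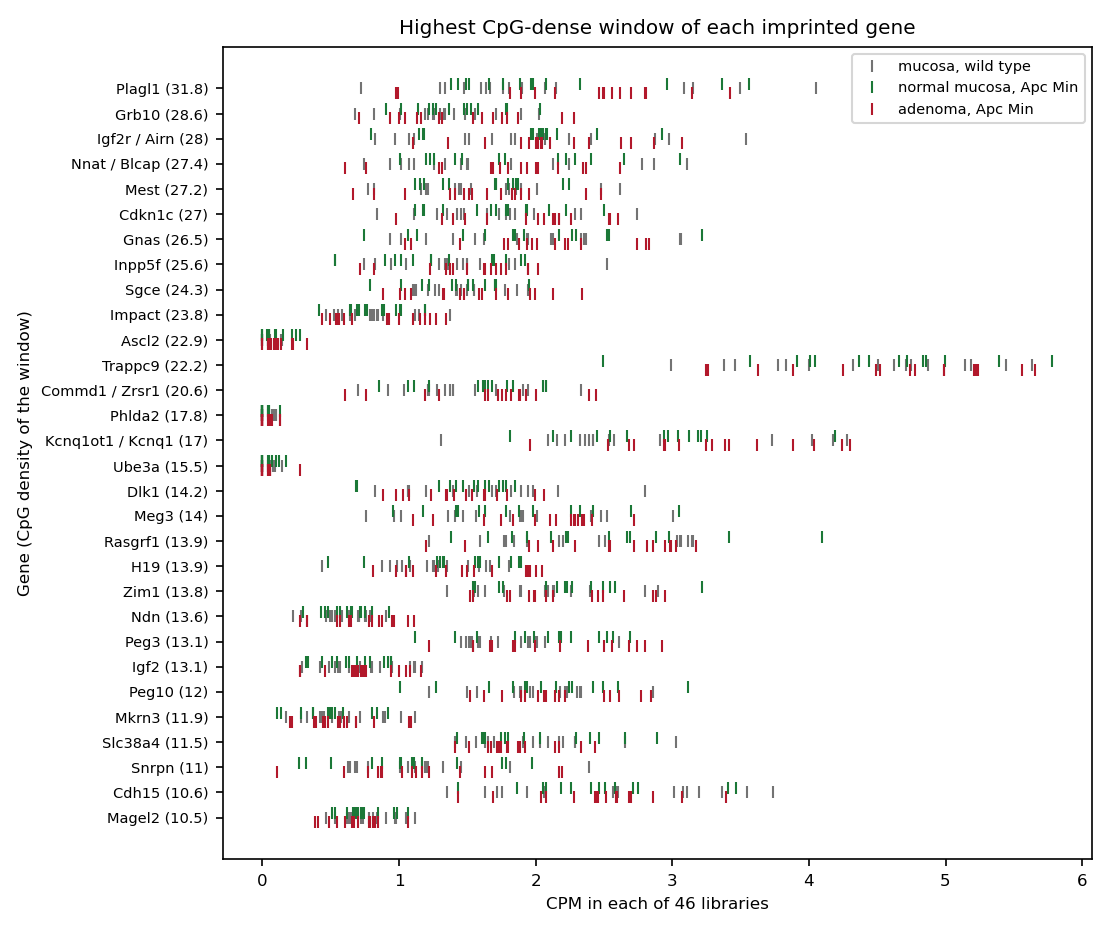
CPM in each of 46 libraries (ticks) at the highest CpG-dense window of each gene, ordered by the CpG density given in brackets, in adenoma, normal mucosa and wild type mucosa. The ticks of the 3 tissues overlap at each gene; Ube3a, Phlda2 and Ascl2 lie near 0.

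For the tests, the counts of a gene's CpG-dense windows were summed, and likewise those of its other windows. Of the 34 genes with CpG-dense windows 31 had enough counts to be tested, all but Ube3a, Phlda2 and Ascl2, and all 36 were tested over their other windows. Over the 5 strains with both tissues, 0 of the 31 and 0 of the 36 passed an adjusted p of 0.05 with edgeR's quasi-likelihood test and Benjamini-Hochberg adjustment over 63826 gene sums, and DESeq2 called 0 as well. Over all genes 0.00539% of the CpG-dense sums and 0.00663% of the other sums were called. At an unadjusted p of 0.05, 1 of the 31 and 1 of the 36 passed, or 3.23% and 2.78%, against 3.67% and 3.32% over all genes. The median log2 difference of the 31 was 0.06, with 27 above 0, against 0.04 over all CpG-dense sums, of which 65.6% were above 0. By strain the median was 0.20 in B6 (29 of 31 above 0) and -0.13 in C5 (7 of 31), against 0.15 and -0.04 over all CpG-dense sums. It ran from 0.01 without C5 adenoma 12_3 (19 above 0) or C5 normal 16_2 (20 above 0) to 0.11 without C5 adenoma 16_3 (31 above 0), and with TMM on CpG-dense windows it was 0.02 (21 above 0). For the other windows the median was -0.01, against -0.02 over all.

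Ndn had the lowest p among the CpG-dense sums. Its 4 CpG-dense windows together were at 1.1, 1.98 and 2.80 CPM (lowest, median and highest) in adenomas, 0.640, 1.38 and 2.14 CPM in normal mucosa and 0.873, 1.38 and 2.28 CPM in wild type mucosa. The adenoma range overlapped both others. The log2 difference was 0.44 ± 0.14 (SE), with an unadjusted p of 0.00296 and an adjusted p of 1 in edgeR's quasi-likelihood test. In B6 the 5 adenomas were at 2.56, 2.35, 2.58, 2.61 and 2.80 CPM and the 3 normal samples at 1.32, 1.40 and 2.00 CPM, which did not overlap. In C5 the adenomas were at 1.80, 2.19 and 1.1 CPM and the normal samples at 1.65, 2.14 and 1.06 CPM, and these overlapped. The log2 differences within strains were 0.71 ± 0.24 in B6, 0.48 ± 0.28 in B6xPWD, 0.52 ± 0.29 in C5F1, 0.41 ± 0.43 in C1_5F1 and 0.07 ± 0.28 in C5, each with an adjusted p of 1, and the joint test of a difference between strains gave an unadjusted p of 0.552. Without library 11_6 the difference over strains was 0.45. When the number that opens each label was added as a factor it was 0.47, with an adjusted p of 0.0992, the lowest of the alternatives run (0.0992 to 1).

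The single window of lowest p at Ndn, 7:62348501 to 62348750 (density 20.2), was at 0.385, 0.608 and 0.939 CPM in adenomas and 0.0943, 0.318 and 0.764 CPM in normal mucosa. Its log2 difference was 0.87 ± 0.23, with an adjusted p of 0.783 in edgeR's quasi-likelihood test. Over single windows, 0 of 266 CpG-dense and 0 of 1537 other windows of imprinted genes passed, where 0.00494% and 0.00054% of all windows did. At an unadjusted p of 0.05, 8 of the 266 (3.01%) and 73 of the 1537 (4.75%) passed, against 3.96% and 3.95% of all windows. DESeq2 was not run on single windows.

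The next members by p did not pass either, each with an adjusted p of 1 in edgeR's quasi-likelihood test. Mkrn3 differed by 0.18 ± 0.14 and Kcnq1ot1 by 0.13 ± 0.08 over their CpG-dense windows. Over their other windows Blcap differed by -0.09 ± 0.05, Commd1 by -0.05 ± 0.03 and Airn by 0.03 ± 0.03. The last changed sign, to -0.01, when libraries were scaled on CpG-dense windows. A window of Ddc outside the CpG-dense class, 11:11836751 to 11837000 (density 9.92), was at 0, 0.245 and 0.725 CPM in adenomas and 0.148, 0.514 and 1.07 CPM in normal mucosa, a log2 difference of -1.20 ± 0.30 with an adjusted p of 0.729.

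Normal mucosa of APC min mice and wild type mucosa were compared in the 4 strains that have both. With edgeR's quasi-likelihood test 0 of the 31 CpG-dense and 0 of the 36 other sums of imprinted genes passed, and 0% of all sums did. At an unadjusted p of 0.05 none of the 67 passed either. The genes were also split by the germline origin of the mark in their cluster, which need not lie at the gene itself. Between adenoma and normal mucosa 23 of 26 genes of clusters with an egg-derived mark were above 0 over CpG-dense windows (median 0.06). Of clusters with a sperm-derived mark 4 of 5 were (median 0.05), and of all CpG-dense sums 65.6%. Some of these genes, such as Igf2r and Airn, share CpG-dense windows and are not separate. The test of whether the adenoma difference varied with strain gave 0 adjusted calls over all 63826 sums and 0 of 67 for imprinted genes at an unadjusted p of 0.05 (lowest 0.183). Genes of the machinery that keeps imprints, such as Dnmt1, Uhrf1, Zfp57 and Trim28, were also without calls between adenoma and normal mucosa, with 0 of 13 tested over CpG-dense and 0 of 23 over other windows and a median of 0.05 over the CpG-dense ones. Of 40 other imprinted genes listed, 28 were tested over CpG-dense windows and 39 over other windows, and 0 passed, with a median of 0.03 over CpG-dense windows. Cell type lists moved little: 5 of 8 epithelial genes, 4 of 8 immune genes and 3 of 5 stromal genes were above 0 over CpG-dense windows, with medians of 0.02, 0.03 and 0.03. Their part in the adenoma values was not tested.

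**Figure D4:**
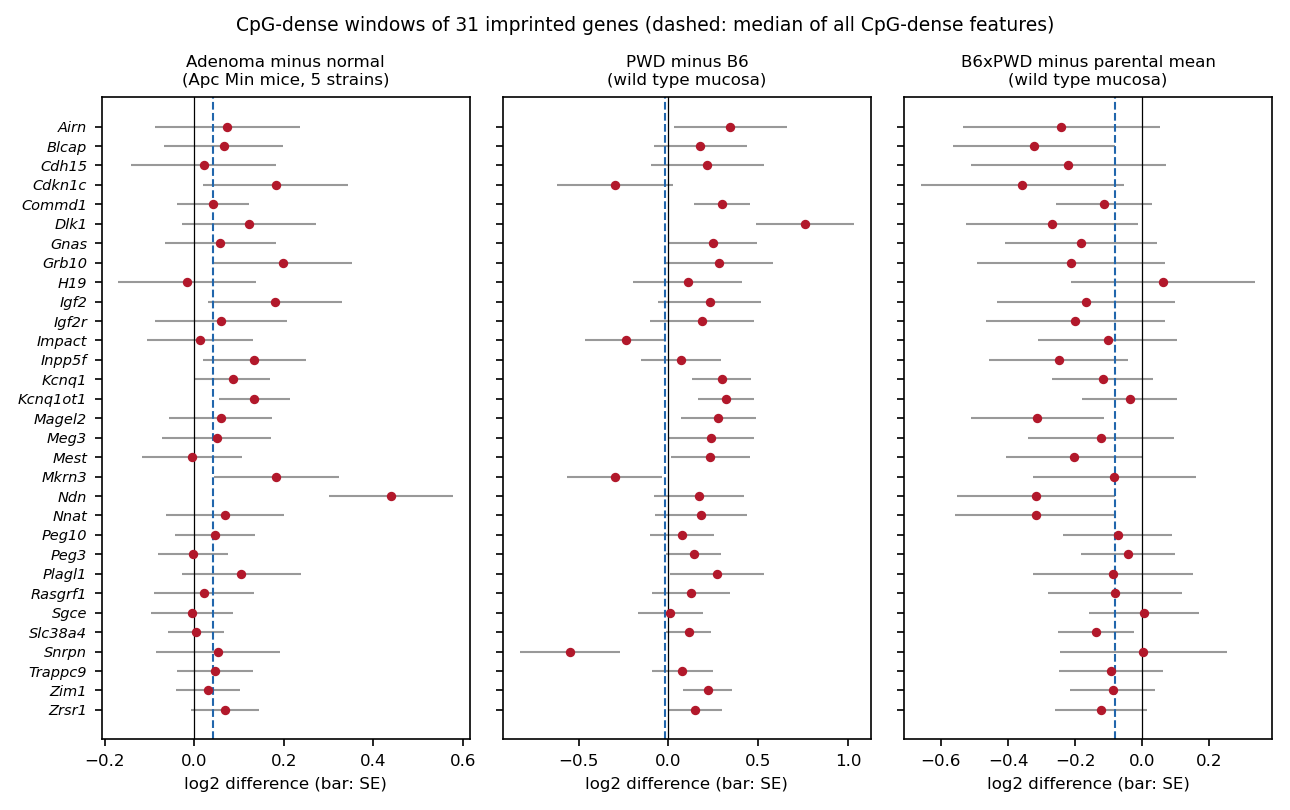
Log2 differences (points; bars SE) over the CpG-dense windows of 31 imprinted genes for adenoma minus normal mucosa, PWD minus B6 and B6xPWD minus the mean of its parent strains. Dashed lines give the median of all CpG-dense sums (0.04, -0.02 and -0.08); 0 of the 31 passed the adjusted threshold in each comparison.

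The second comparison set wild type mucosa of PWD beside that of B6, strains from different mouse subspecies. Summed over a gene, few imprinted genes passed, but this count rested on how libraries were scaled and grouped. Among CpG-dense sums 0 of 31 passed, where 19.1% of all did, and among other sums 1 of 36 (2.78%) passed, where 12.8% of all did, with edgeR's quasi-likelihood test. DESeq2 called 0 of the 67. With the number that opens each label as a factor 18 of the 67 passed (26.9%, against 18.3% of all sums), and with TMM on CpG-dense windows 11 (16.4%, against 13.4%), both above the share over all sums. The label-number fit rested on B6 library 16_8, the 1 B6 library under a number that PWD libraries also carry. At an unadjusted p of 0.05, 2 of the 31 (6.45%) and 10 of the 36 (27.8%) passed, against 28.3% and 25.1% of all sums. The median log2 difference of the 31 was 0.18, with 27 above 0, against -0.02 over all CpG-dense sums. Without B6 wild type library 16_8, which had a low CpG-dense share, that median was 0.05 and 20 of the 31 were above 0. With that label number as a factor it was 0.56, but the median of all CpG-dense sums moved to 0.41 as well.

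The gene that passed was Nnat, over its other windows. The B6 libraries were at 2.81, 2.75, 3.71 and 3.10 CPM and the PWD libraries at 4.06, 4.29 and 3.58 CPM, so that 1 B6 library lay above the lowest PWD library. The log2 difference was 0.36 ± 0.12 with an adjusted p of 0.0394 in edgeR's quasi-likelihood test. The B6xPWD libraries lay at 3.0, 3.06 and 3.33 CPM. The call was lost under 7 of the other settings, with adjusted p-values up to 0.215 and DESeq2 at 0.0962, and without any of 5 of the 7 libraries (B6 10_1, 16_8 and 4_5, and PWD 11_1 and 11_2).

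Dlk1, which encodes a Notch-like regulator of growth and fat cells, had the next lowest p over CpG-dense windows. The B6 libraries were at 5.67, 2.70, 4.07 and 4.38 CPM, the PWD libraries at 9.26, 6.02 and 6.12 CPM and the B6xPWD libraries at 4.20, 5.15 and 4.31 CPM. PWD lay above B6 without overlap. The log2 difference was 0.76 ± 0.27 with an adjusted p of 0.0552, and over its other windows it was 0.42 ± 0.16 with 0.0625 (edgeR's quasi-likelihood test). Both passed with DESeq2's size factors (0.0373 and 0.0361). Over all alternatives the adjusted p ran from 0.000765 to 0.334 for CpG-dense and from 0.00294 to 0.319 for other windows of Dlk1. Kcnq1ot1 was at 12.3, 7.19, 11.2 and 13.7 CPM in B6 and 14.8, 14.5 and 12.4 CPM in PWD, which overlapped, with a difference of 0.32 ± 0.16 and an adjusted p of 0.183. Snrpn had the lowest CpG-dense difference, -0.55 ± 0.28 (adjusted p 0.210), and Kcnq1, a potassium channel gene, 0.20 ± 0.07 over other windows (0.0575).

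Single windows showed differences that the sums did not. Of 266 CpG-dense windows of imprinted genes 20 (7.52%) passed between PWD and B6 with edgeR's quasi-likelihood test, 15 higher and 5 lower in PWD. Of all CpG-dense windows 25% passed, 4.87% higher and 20.2% lower. Of 1537 other windows 249 (16.2%) passed, 100 higher and 149 lower in PWD. Of all other windows 19.4% passed, 7.48% higher and 11.9% lower. The CpG-dense calls fell in 11 of 31 genes and the other calls in 23 of 36. Trappc9 held 5 of the CpG-dense calls among 17 windows tested and 88 of the other calls, 35 higher and 53 lower, among 426. Kcnq1 held 4 of 18, 2 of them in the windows of Kcnq1ot1, where 2 of 6 were called. Dlk1 had 2 of 6, Commd1 2 of 9, Slc38a4 2 of 13, Gnas 2 of 48, Magel2 1 of 3, Snrpn 1 of 7, Airn 1 of 10 and Igf2r 1 of 14. The share called was 33.3% at Kcnq1ot1 and 4.17% at Gnas, against 25% of all CpG-dense windows. Mest, Plagl1, Peg3, Peg10, Grb10, Nnat, Inpp5f and Zrsr1, with 6 to 16 windows tested in each, were among the 20 genes without a call. These windows cover body and flank and not the control region alone, and the few windows per gene do not show that control regions differ.

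The lowest p among CpG-dense windows belonged to Trappc9, at 15:72848501 to 72848750 (density 10.5), inside the gene. The B6 libraries were at 0.572, 0.241, 0.402 and 0.531 CPM and the PWD libraries at 1.89, 2.71 and 1.59 CPM. The log2 difference was 2.20 ± 0.28, with an adjusted p of 4.5e-09 in edgeR's quasi-likelihood test. All 9 B6xPWD libraries, at 1.02 to 1.72 CPM, lay above all 12 B6 libraries, at 0.111 to 0.572 CPM, in each tissue. The 22 libraries of C5, C5F1 and C1_5F1 were at 0.131 to 0.526 CPM, within the B6 range. Elsewhere in Trappc9 the direction was the opposite. At 15:72958501 (density 10.5) the B6 libraries were at 0.660, 0.676, 0.552 and 1.06 CPM and the PWD libraries at 0.0788, 0.0933 and 0.172 CPM, a difference of -2.64 ± 0.47. At 15:73027751 (density 6.23) B6 was at 2.33, 1.16, 1.1 and 1.28 CPM and PWD at 0.0788, 0.0933 and 0.0431 CPM, with all 9 B6xPWD libraries above PWD, at 0.399 to 1.13 CPM. The ratio of PWD to B6 there was 0.0480 (exact interval at 95% confidence 0.0153 to 0.115, from counts of 5 and 128).

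A further 3 windows were at or near 0 in PWD. At Snrpn 7:60155501 (density 29.7), B6 was at 0.660, 0.145, 0.301 and 0.398 CPM and the 3 PWD libraries at 0, which makes PWD at least 8.96-fold lower, taking 3 counts over the group as the least that would be seen. This window lies far from the control region, in the long annotated span of Snrpn. At Igf2r 17:12694751 (density 6.14), B6 was at 0.572, 0.579, 0.452 and 0.575 CPM and PWD at 0, at least 12.8-fold lower on the same floor. At Zim1, a zinc-finger gene next to Peg3, the window 7:6694251 (density 5.52) was at 1.41, 0.821, 1.16 and 1.02 CPM in B6 and 0, 0.0933 and 0.0431 CPM in PWD, a ratio of 0.0388 (0.00786 to 0.117, counts of 3 and 95). B6xPWD libraries were at 0.0449 to 0.352, 0.125 to 0.660 and 0.136 to 0.625 CPM in these 3 windows. Less methylation in PWD and sequence that reads from PWD do not match in mm10 cannot be told apart in such windows.

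In the other direction, Airn at 17:12784751 (density 3.03) was at 0.0966 to 0.177 CPM in the 4 B6 libraries and 0.946, 0.887 and 0.862 CPM in PWD, without overlap. The difference was 2.64 ± 0.39 with an adjusted p of 3.79e-07 in edgeR's quasi-likelihood test. Gnas at 2:174345001 (density 11.4) was at 0.528, 0.386, 0.452 and 0.531 CPM in B6 and 1.03, 1.21 and 1.29 CPM in PWD, 1.29 ± 0.28 with 0.000370. Within the Kcnq1ot1 region, 7:143295751 (density 19.6) was at 1.5, 1.30, 0.904 and 1.42 CPM in B6 and 1.77, 2.29 and 2.15 CPM in PWD, 0.68 ± 0.23 with 0.0283.

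**Figure D5:**
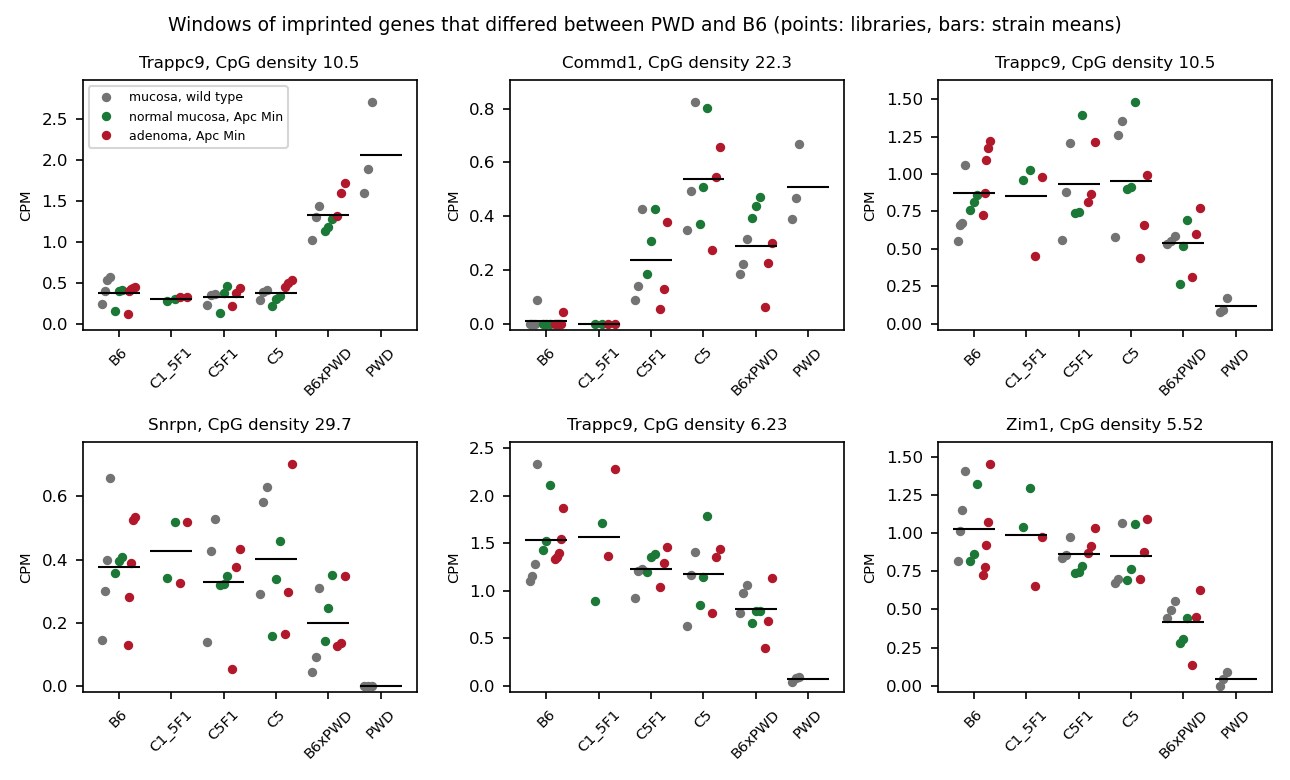
CPM in each library (points, coloured by tissue; bars are strain means) at the 4 CpG-dense windows and the 2 other windows of lowest p between PWD and B6. In Trappc9, Snrpn and Zim1 the C5, C5F1 and C1_5F1 ranges overlap that of B6; at the Commd1 start all 9 C5 and all 9 C5F1 libraries lie above 0.05 CPM while 10 of 12 B6 and 4 of 4 C1_5F1 libraries are at 0.

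At the start of Commd1 the strains fell in another order than at the windows above. At 11:22982001 to 22982250 (density 22.3) B6 wild type libraries were at 0, 0, 0 and 0.0885 CPM and PWD libraries at 0.670, 0.467 and 0.388 CPM. With counts of 36 and 2 the ratio was 22.1 (exact interval at 95% confidence 5.69 to 190), and the fitted log2 difference of 4.14 ± 0.71 had an adjusted p of 7.4e-06 in edgeR's quasi-likelihood test. The next window, 11:22982251 (density 17.6), was at 0, 0, 0.0502 and 0.0442 CPM in B6 and 0.315, 0.467 and 0.345 CPM in PWD, a ratio of 16.0 (4.00 to 139, counts of 26 and 2).

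No member lies on chromosome 5, and by its label C5 carries B6 DNA at chromosome 11. At the first of these Commd1 windows all 12 B6 libraries together were at 0 to 0.0885 CPM with a median of 0. The 9 C5 libraries were at 0.275, 0.509 and 0.825 CPM (lowest, median and highest), and the 9 C5F1 libraries at 0.0543, 0.184 and 0.427 CPM. The 9 B6xPWD libraries were at 0.0625, 0.299 and 0.472 CPM, and all 4 C1_5F1 libraries at 0. The ranges of C5 and PWD overlapped, as did those of C5F1 and B6xPWD, and all C5 libraries lay above all B6 libraries. The lowest C5F1 library lay below the highest B6 library, so those ranges overlapped. At the second window the 9 C5 libraries were at 0.116, 0.395 and 0.889 CPM, the 9 C5F1 libraries at 0, 0.186 and 0.498 CPM and the 4 C1_5F1 libraries at 0 to 0.0649 CPM.

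A comparison of C5, C5F1 and C1_5F1 with B6 over the same tissues was added after these values were seen. At the first Commd1 window, with counts of 101 in C5 and 3 in B6, the ratio was 46.9 (15.6 to 231). With 41 in C5F1 it was 19.2 (6.13 to 97.0). The adjusted p was 1.85e-13 for C5 and 8.33e-06 for C5F1 in edgeR's quasi-likelihood test, and for the second window 1.1e-09 and 0.0021. Only these 2 windows passed in C5F1 among the 266 CpG-dense windows of imprinted genes (0.752%, against 1.02% of all), and 4 passed in C5 (1.5%, against 3.29%). The other 2 in C5 lay at the shared start of Peg10 and Sgce, at 6:4748001 and 6:4747751, and were lower than in B6 by -0.86 ± 0.21 and -0.49 ± 0.15. In C1_5F1 0 of 266 passed with edgeR, 20 at an unadjusted p of 0.05, and 0.214% of all did.

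Label number 16 is the 1 number under which both B6 and C5 or C5F1 libraries were made. Within it, B6 library 16_8 was at 0 in both Commd1 windows, the 3 C5 libraries were at 0.275 to 0.372 CPM in the first and 0.116 to 0.275 CPM in the second, and the 3 C5F1 libraries at 0.0543 to 0.426 and 0.0533 to 0.186 CPM. With the label number as a factor, so that this 1 B6 library carries the comparison, 0 windows of imprinted genes passed in either strain. What sets the Commd1 level was not tested. The part of Commd1 that holds Zrsr1 did not share the pattern: at 11:22972251 the wild type means were 1.37 ± 0.409 CPM in B6 (SD, n = 4), 1.16 ± 0.106 in PWD (n = 3) and 1.43 ± 0.112 in B6xPWD (n = 3).

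Among other windows 31 of 1537 passed in C5 (2.02%, against 3.21% of all) and 15 in C5F1 (0.976%, against 0.931%). In C1_5F1 0 of 1537 passed with edgeR, 134 at an unadjusted p of 0.05, and 0.0996% of all did. The lowest p was at Rasgrf1, a guanine nucleotide exchange factor gene imprinted from sperm, at 9:89961251 (density 1.28). Its B6 libraries were at 0, 0.248 and 1.01 CPM (lowest, median and highest of 12), those of C5 at 0.658, 0.770 and 1.33 CPM and those of C5F1 at 0.478, 0.876 and 1.49 CPM. The log2 difference from B6 was 1.52 ± 0.26 for C5 and 1.5 ± 0.26 for C5F1. The highest B6 library was 16_8, so that within label number 16 the strains overlapped, unlike at Commd1. Over summed windows 1 of 31 CpG-dense and 2 of 36 other sums passed in C5, against 4.51% and 4.01% of all, and 1 and 4 in C5F1, against 2.21% and 2.91%. Snrpn passed in both over its other windows (0.33 ± 0.08 and 0.37 ± 0.08), with wild type B6 libraries at 45.2, 89.0, 69.5 and 63.3 CPM and C5 at 72.0, 70.7 and 90.7 CPM, which overlapped.

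The third comparison set B6xPWD beside its parents in wild type mucosa, which asks whether the cross lies midway between them. By sums, 0 of 31 CpG-dense and 0 of 36 other sums of imprinted genes differed from the parental mean with edgeR's quasi-likelihood test, and DESeq2 called 0. Of all sums 0.491% and 0.216% were called. At an unadjusted p of 0.05, 0 of the 31 and 1 of the 36 passed. The median over the 31 was -0.12, with 3 above 0, against -0.08 over all CpG-dense sums. Its sign turned with the label number as a factor (0.105, 18 above 0, against 0.15 over all). In that fit the comparison with B6 rested on library 16_8. With TMM on CpG-dense windows the median was -0.03 (11 above 0), and without B6 16_8 or B6xPWD 11_4 it was -0.20 or -0.22. The 1 with an unadjusted p under 0.05 was Phlda2 over its other windows, at 2.42, 1.88, 2.31 and 2.39 CPM in B6, 2.80, 2.29 and 2.15 CPM in PWD and 1.62, 1.47 and 1.89 CPM in B6xPWD. The log2 difference from the parental mean was -0.49 ± 0.22 with an adjusted p of 0.901. Over CpG-dense windows Magel2 was at -0.31 ± 0.20, Ndn at -0.32 ± 0.24 and Blcap at -0.32 ± 0.24, and over other windows Magel2 was at 0.18 ± 0.11 and Mest at -0.12 ± 0.08, each with an adjusted p of 1. Of epithelial genes none was called, with 0 of 8 above 0 over CpG-dense windows (median -0.71) and 0 of 12 over other windows (median -0.21), where 35.0% and 49.5% of all sums were above 0. Immune genes were at a median of -0.10 and stromal genes at 0.01 over CpG-dense windows. The part of these lists in the B6xPWD values was not tested.

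By single windows, 0 of 266 CpG-dense and 0 of 1537 other windows passed with edgeR, against 0.515% and 0.115% of all, and 14 (5.26%) and 77 (5.01%) had an unadjusted p of 0.05 or less. The lowest p of the CpG-dense windows was at Inpp5f 7:128687501, within its captured stretch, at 1.67, 1.30, 1.66 and 1.55 CPM in B6, 1.38, 1.07 and 1.77 CPM in PWD and 0.692, 0.755 and 0.944 CPM in B6xPWD. All 3 B6xPWD libraries lay below all 7 parental ones, by -0.88 ± 0.24 with an adjusted p of 0.140. When CpG-dense windows were fitted alone the adjusted p of this Inpp5f window was 0.046, and over all alternatives it ran from 0.0395 to 0.457.

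The windows that differed between the parents were followed in mice that the comparison had not used. Between B6xPWD and B6 tissue of APC min mice, with no library shared with the wild type comparison, 14 of the 15 CpG-dense windows higher in PWD and 5 of 5 lower ones kept their sign, and 5 and 1 passed. Of other windows 96 of 100 and 142 of 149 kept their sign, and 34 and 18 passed. The matching shares over all windows called between PWD and B6 were not computed. These counts therefore do not show a trait particular to imprinted genes. Over all windows of imprinted genes 7 of 266 (2.63%) and 72 of 1537 (4.68%) passed in that comparison, against 7.71% and 6.07% of all. By sums 0 of 31 and 0 of 36 passed with edgeR, against 7.06% and 4.06%, with 0 and 4 at an unadjusted p of 0.05, and DESeq2 called 0.

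The position of the cross was also read on the linear CPM scale, with 0% at the wild type mean of B6 and 100% at that of PWD. The same wild type B6 and PWD libraries had chosen the windows, so the ends of this scale may lie too far apart. Over the 100 other windows higher in PWD the 6 B6xPWD libraries of APC min mice lay at 47.7% ± 3.72 (SD, n = 6) and the 8 B6 libraries at 9.21% ± 4.87 (n = 8). Over the 149 lower windows they lay at 47.4% ± 1.20 and 5.94% ± 8.13. Over the 15 CpG-dense windows higher in PWD they lay at 55.7% ± 12.2 and 17.4% ± 14.0, and over the 5 lower ones at 43.9% ± 10.2 and 5.05% ± 19.5. The 17.4% pools B6 adenomas at 27.3% (21.8% to 31.6%, n = 5) and B6 normal mucosa at 0.955% (-1.47% to 4.10%, n = 3), which did not overlap. In B6xPWD adenomas (49.9% to 67.4%) and normal mucosa (42.1% to 73.4%) overlapped over these 15 windows, and so did the 2 tissues in C5, C5F1 and C1_5F1. The 4 wild type B6 libraries ran from -33.5% to 20.5% over them. The 3 wild type B6xPWD libraries, which did not choose the windows either, lay at 48.8% ± 4.18 and 47.1% ± 2.59 (SD, n = 3) over the higher and lower other windows and at 47.4% ± 14.2 over the 5 lower CpG-dense ones. Over the 15 CpG-dense windows higher in PWD they lay at 34.0% ± 7.66, from 26.0% to 41.3%, nearer to B6.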

How the data were processed

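MeDIP libraries of mouse intestine were sequenced and, per the submitters' processing notes, aligned with BWA to mm10; its version was not stated. The authors deposited read counts in 10535096 windows of 250 bp, 46 MeDIP columns and 1 input column, with a CpG density score per window whose scale is not stated per the file headers. Of 54 samples listed, 7 had no column and are not used here. Sex chromosomes were left out.

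Windows were assigned to genes by overlap with the body and a 2 kb flank. Members and lists were chosen with earlier results of these data known. Counts were scaled by TMM and tested with edgeR 4.0.16 (quasi-likelihood test, 1 mean per group, counts filtered with a minimum of 10, R 4.3.3, limma 3.58.1), with Benjamini-Hochberg adjustment over 63826 gene sums or 1172069 windows and a threshold of 0.05. Exact intervals at 95% confidence and the floor of 3 counts cover counting error only. The test of gene sums was run on simulated counts that held no effect of label number. For adenoma minus normal mucosa it recovered 94% of 2-fold and 100% of 4-fold changes, with 14 false calls among 208. For PWD minus B6 it recovered 72% and 90%, with 6 false calls among 168. Alternatives were DESeq2 1.42.0 and its size factors, library totals, TMM on CpG-dense windows, the number opening each label as a factor, no filter, density limits of 7 and 15, no flank and a 5 kb flank, CpG-dense windows fitted alone, linear CPM in limma, and each library left out in turn.

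Values per library are given for members that passed a comparison (at most 6 of lowest p), otherwise for the 3 of lowest p, for highest windows, and for at most 5 windows of lowest p per comparison and density class. Other windows named in describing levels, and the windows of C5, were chosen after their values were seen.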

Additional observations from a re-analysis of the deposited data

Results flagged for a closer look

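In groups of 4 or 5 B6 libraries, 12 of 102 sets of values held 1 value that stood apart in its group, and chance alone gives about 1 in 20. In the highest CpG-dense window, wild type library 16_8 was lowest at Plagl1 with 0.724 CPM (others 1.76 to 1.90), at Kcnq1ot1 and Kcnq1, which share the window, with 1.30 CPM (2.36 to 2.42) and at Ascl2 with 0 CPM (0.0440 to 0.0502). At Ube3a it was highest with 0.0483 CPM, where the others were at 0. These Ascl2 and Ube3a values of wild type libraries are 0 or 1 count, under the floor of 3 counts (0.132 to 0.151 CPM in these libraries), and do not show that a library stood apart. Wild type library 10_1 was highest at Mkrn3 with 0.880 CPM (0.435 to 0.452). Adenoma library 10_2 was lowest at Magel2 with 0.384 CPM (0.603 to 0.673), and adenoma library 4_2 was highest at Ube3a with 0.277 CPM (0 to 0.0561).

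Over other windows, wild type library 10_1 was lowest at Blcap with 7.47 CPM (9.13 to 9.29) and wild type library 4_5 highest at Kcnq1 with 127 CPM (110.1 to 112.7). Adenoma library 4_2 was highest at Phlda2 with 3.05 CPM (2.13 to 2.35), and adenoma library 10_2 was lowest at Dlk1 with 7.21 CPM (8.59 to 8.98).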

How the results depend on the processing

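No paired analysis was possible because no full replicate number, such as 11_5, is shared between groups. Several groups share the number that opens it, and the fits with that number as a factor are the blocked ones here. Library 16_8 is the 1 B6 library under a number that other strains also carry. In those fits the comparisons of PWD, B6xPWD, C5 and C5F1 with B6 therefore rest on that library. Between PWD and B6, 1 gene sum passed, and this count was 5 with DESeq2's size factors (15.4% of all sums passed), 11 with TMM on CpG-dense windows (13.4%), 18 with the number that opens the label as a factor (18.3%), 0 with DESeq2, 5 and 2 at density limits of 7 and 15, and 4 with a 5 kb flank. It ran from 0 to 2 with 1 library left out (0 without B6 16_8, PWD 11_1 or PWD 11_2, and 2 without B6 10_1 or 4_5). Between B6xPWD and B6 in APC min tissue, 0 became 1 with library totals, 3 with TMM on CpG-dense windows and 7 with the label number. Of windows between PWD and B6, 20 CpG-dense and 249 other became 34 and 120 with the label number, and the CpG-dense count ran from 10 (without PWD 11_1) to 20, with 12 without B6 4_4. Between B6xPWD and its parents, 0 CpG-dense windows became 1 in the fit of CpG-dense windows alone (0 to 1 with 1 library left out), and 0 other windows became 2 with the label number. Between C5 and B6, 4 CpG-dense windows became 7 with library totals and 0 with the label number (3 to 7 with 1 library left out, 7 without B6 16_8), and 31 other windows became 0 with the label number. Between C5F1 and B6, 2 CpG-dense and 15 other windows became 0 and 0 with the label number, and the CpG-dense count ran from 1 (without C5F1 12_9) to 4 (without B6 16_8). The adenoma difference of Airn over other windows turned to -0.0128 with TMM on CpG-dense windows. The cause of these changes was not tested. Of the single genes and windows named, 234 comparisons with an alternative that kept all libraries held direction and call, 18 gained and 7 lost a call, and 1 turned. With 1 library left out, 507 held direction and call, 5 gained and 5 lost a call. Depth limits single windows: a count of 0 allows 0.107 to 0.326 CPM per library.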

Other observations

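Of the 24 genes listed for the machinery that sets, reads or erases imprints, 13 were tested over CpG-dense windows between PWD and B6. Among these, 2 were higher and 2 lower in PWD with edgeR's quasi-likelihood test, and 2 of 23 were higher over other windows, where 19.1% of all CpG-dense and 12.8% of all other sums passed. Of 40 further imprinted genes, 1 of 28 was lower over CpG-dense windows and 1 of 39 higher over other windows, both below those shares. Imprinted genes held 0.481% to 0.519% of the CpG-dense counts in the 3 PWD libraries, 0.383% to 0.439% in the 4 wild type B6 libraries and 0.422% to 0.465% in the 3 wild type B6xPWD libraries. The PWD range lay above those of wild type B6 and B6xPWD. Within it lay C5 wild type library 12_1 (0.488%), C5 normal library 12_2 (0.483%) and B6xPWD normal library 11_6 (0.491%). The share also depends on CpG-dense windows elsewhere, of which 20.2% were lower and 4.87% higher in PWD over all windows tested. Their part in it was not tested.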
